A study of Mus musculus with 6 samples.

Results

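The genes described here are the mouse orthologues of the region of human chromosome 22q11.2 that is deleted in 22q11 deletion syndrome, read in RNA-seq of E9.5 pharyngeal tissue from *Pax9*-null and wild-type mice. They were chosen by gene symbol, from a list of 34 symbols that name 32 distinct genes of mouse chromosome 16, without *Tbx1* and 2 others. Of these 32 genes, 18 have a row in the deposited table of 14647 genes, and all 18 passed the filter of a mean of at least 0.5 RPKM (reads per kilobase of gene length, scaled to library size) over the 6 libraries. The other 14, *Dgcr6*, *Dgcr8*, *Gp1bb*, *Txnrd2*, *Tango2*, *Trmt2a*, *Ranbp1*, *Zdhhc8*, *Rtn4r*, *Prodh*, *Serpind1*, *Aifm3*, *Slc7a4* and *P2rx6*, have no row and were not analysed here.

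The 6 libraries came from 3 *Pax9*-null embryos, which carry a constitutive loss of *Pax9* in every cell, and 3 stage-matched wild-type embryos. The tissue was the pharyngeal region caudal to the first arch, and the embryos were a mix of females and males. The study asked how loss of *Pax9* alters the pharyngeal transcriptome. Effective library sizes, worked out from the values, were 11579723, 11509910 and 11728259 reads in *Pax9*-null replicates 1 to 3 and 12692325, 12352674 and 12578337 in wild-type replicates 1 to 3. Nothing in the labels says that the embryos came from separate litters, so *P* values measure the spread between these libraries.

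People with 22q11 deletion syndrome carry 1 copy of a block of neighbouring genes, and commonly have defects of the aortic arch arteries, outflow tract, thymus, parathyroids and palate, all structures that form from the pharyngeal arches and pouches. The block is held together on mouse chromosome 16, so that its genes can be followed there as neighbours. *TBX1* is the gene most closely tied to the heart and arch artery defects, and *CRKL* is known as a further gene in which loss disturbs neural crest derivatives and the outflow tract. The remaining genes serve many cell types, in chromatin assembly, DNA replication, RNA processing, membrane lipids, vesicle fusion, mitochondrial transport and cell adhesion. *Pax9* encodes a paired-box transcription factor of the pharyngeal endoderm.

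The genotype labels were checked first by *Pax9* itself (ENSMUSG00000001497, chromosome 12, 56691767 to 56712822 in GRCm38). It had log2 RPKM values of −0.43, −0.63 and −0.59 in *Pax9*-null libraries and 0.63, 0.71 and 0.96 in wild-type libraries, from 37 to 43 and 99 to 123 reads. The groups did not overlap, with a log2 fold change of −1.32 (adjusted *P*=0.0155 by limma, standard error 0.19).

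The labels give the tissue as pharyngeal arch, but their extraction text names sorted TECs, so the tissue was checked with marker genes. All 6 libraries held markers of pharyngeal endoderm, neural crest and mesoderm, which summed to 45.9 to 57.0, 84.2 to 96.3 and 24.02 to 32.8 RPKM. The most abundant of each list were *Epcam* (30.4 to 38.7 RPKM), *Twist1* (42.4 to 57.4 RPKM) and *Isl1* (8.51 to 11.7 RPKM). Of these lists, 6 of 7, 9 of 9 and 6 of 6 genes had a row, *Nkx2-1* being the gene without. Among them *Twist1* was called higher (log2 fold change 0.35, adjusted *P*=0.0399 by limma), as was *Tcf21* (0.40, adjusted *P*=0.0971), and *Sox10* was called lower (−0.59, adjusted *P*=0.0828).

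Wild-type replicate 3 stood apart in cardiomyocyte markers. The 7 of 7 cardiomyocyte genes, of which *Myl7* was the most abundant, summed to 1441, 1214 and 1086 RPKM in *Pax9*-null replicates 1 to 3, to 1224 and 1321 RPKM in wild-type replicates 1 and 2, and to 71.8 RPKM in wild-type replicate 3. With all 6 libraries, none of the 7 was called by limma or had an unadjusted *P* under 0.05. Without wild-type replicate 3, *Tnnt2* (log2 fold change −0.73, adjusted *P*=0.0486 by limma), *Myh6* (−1.6, adjusted *P*=0.0606) and *Myh7* (−1.39, adjusted *P*=0.063) were called lower. In that fit *Nppa* (−0.74), *Actc1* (−0.17), *Myl4* (0.14) and *Myl7* (0.28) were not called. Neuronal markers (5 of 5, led by *Tubb3*) were highest in the same library, at 160.9 RPKM against 57.7 to 90.5 RPKM in the other 5, and *Elavl3* was called lower in *Pax9*-null embryos (−1.27, adjusted *P*=0.0411 by limma). Primitive erythroid markers (6 of 6, led by *Hbb-y*) were high in *Pax9*-null replicates 1 and 3, at 4879 and 4437 RPKM, and lay between 2385 and 2633 RPKM elsewhere. Of these, *Hbb-bh1* was called higher (0.78, adjusted *P*=0.067). Endothelial markers (6 of 6, led by *Tek*) were highest in wild-type replicate 1, at 91.3 RPKM against 43.4 to 58.9 RPKM, with *Cdh5* (−0.67, adjusted *P*=0.0735) and *Tie1* (−0.74, adjusted *P*=0.082) called lower. Neural tube markers (5 of 5, led by *Sox2*) were lowest in that library, at 38.1 RPKM against 64.8 to 71.4 RPKM, and none of the 5 was called or had an unadjusted *P* under 0.05. For megakaryocytes and platelets 2 of 7 genes had a row (*Pf4* and *Itga2b*), and for hepatocytes only *Apob*, at no more than 0.427 RPKM. The part of these differences in the results below was not tested. In bulk tissue, fewer cells of a type and less RNA per cell cannot be told apart.

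**Figure D1:**
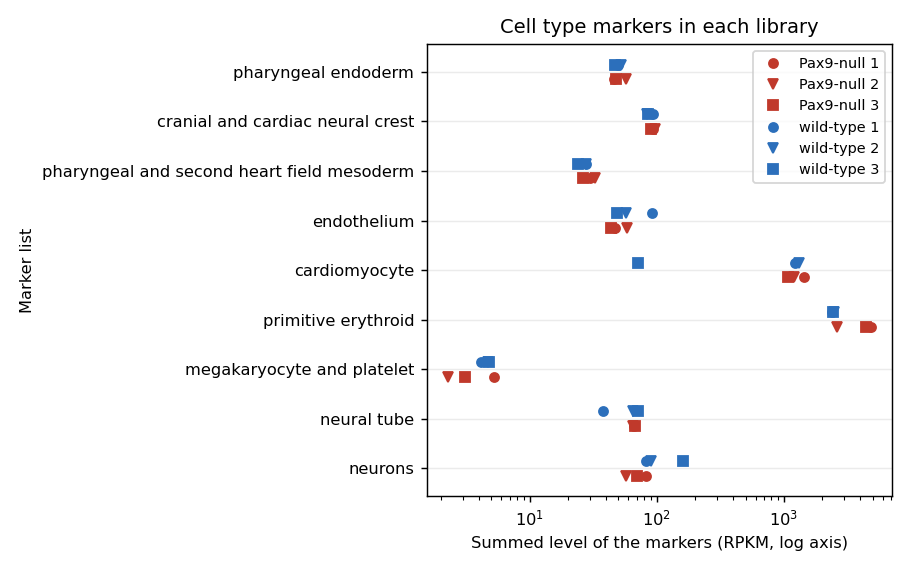
Summed level of the marker genes of each cell type (RPKM, log axis) in each library, with *Pax9*-null libraries in red, wild-type libraries in blue and a symbol per replicate number. The hepatocyte list, with a single gene in the table, is left out. Wild-type replicate 3 lies at 71.8 RPKM for cardiomyocyte markers, where the other 5 libraries lie between 1086 and 1441.

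The 18 genes span chromosome 16 of GRCm38 from 17280351 (*Pi4ka*) to 18970309 (*Hira*), in the order *Pi4ka*, *Snap29*, *Crkl*, *Lztr1*, *Thap7*, *Med15*, *Klhl22*, *Scarf2*, *Dgcr2*, *Dgcr14* (now *Ess2*), *Slc25a1*, *Arvcf*, *Gnb1l*, *Sept5*, *Cdc45*, *Ufd1l* (now *Ufd1*), *2510002D24Rik* and *Hira*. The start sites of 17 of them (all but *Sept5*) were found in RefSeq (GRCm38.p6). The 250 bases before each start had a median GC content of 62.4%, from 40.4% to 76.8%, against a median of 52.0% over 27025 promoters. Within this window a GC box (GGGCGG or CCGCCC) occurred in 9 of 17 promoters (52.9%, against 32.9% of all), a CCAAT box (CCAAT or ATTGG) in 9 (52.9%, against 34.5%) and a TATA box (TATAAA or TTTATA) in 3 (17.6%, against 12.97%). Both strands were searched, and a match is only a match of letters. The 27025 promoters were not limited to genes that passed the RPKM filter, whereas the 17 all did.

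Promoters of 3 genes are shown because they differ in make-up, 2 of them from genes called lower in *Pax9*-null embryos (*Med15* and *Dgcr2*) and 1 from a gene that was not called (*Cdc45*). Each is written 5′ to 3′ on its own strand (minus) up to the last base before the start, with matches in capitals.
Med15 (chr16:17722948-17723197): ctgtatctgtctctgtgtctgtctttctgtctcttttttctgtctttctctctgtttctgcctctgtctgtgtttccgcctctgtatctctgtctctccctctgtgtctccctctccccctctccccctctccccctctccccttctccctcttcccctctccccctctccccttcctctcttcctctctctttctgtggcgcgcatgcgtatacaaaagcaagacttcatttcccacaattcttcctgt
Dgcr2 (chr16:17891729-17891978): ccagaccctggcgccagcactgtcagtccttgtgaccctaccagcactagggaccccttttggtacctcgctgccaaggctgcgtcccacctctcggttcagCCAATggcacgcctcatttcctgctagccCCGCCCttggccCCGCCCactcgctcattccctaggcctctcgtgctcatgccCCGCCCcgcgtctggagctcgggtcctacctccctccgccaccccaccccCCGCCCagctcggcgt
Cdc45 (chr16:18811973-18812222): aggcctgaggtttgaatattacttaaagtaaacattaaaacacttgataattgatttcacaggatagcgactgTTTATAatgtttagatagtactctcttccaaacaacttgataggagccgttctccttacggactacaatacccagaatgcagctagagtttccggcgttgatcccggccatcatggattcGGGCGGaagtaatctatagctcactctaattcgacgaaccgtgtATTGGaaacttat
The *Med15* window held none of the 3 motifs and consisted to 82.8% of C and T. The *Dgcr2* window held 4 GC boxes and 1 CCAAT box, with a GC content of 68.0%. *Cdc45* had 1 match of each motif and the lowest GC content of the 17, 40.4%. *Cdc45* and *Ufd1l* are transcribed away from each other, with 321 bases between their starts.

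*Pi4ka* and *Snap29* form a second head-to-head pair. The 134 bases between the inner of the 2 listed *Pi4ka* starts (17405865) and the *Snap29* start (17406000) are shown because *Pi4ka* was called lower and *Snap29* was not. They are written on the plus strand.
Pi4ka to Snap29 (chr16:17405866-17405999): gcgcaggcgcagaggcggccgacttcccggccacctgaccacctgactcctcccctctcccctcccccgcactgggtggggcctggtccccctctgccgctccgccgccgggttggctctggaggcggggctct
This stretch had a GC content of 76.1% and none of the 3 motifs. The promoter counts above used the outer *Pi4ka* start (17406314), for which the 250 bases held a CCAAT box and a TATA box.

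Of the 18 genes, *Pi4ka*, *Med15*, *Dgcr2*, *Arvcf* and *Sept5* were called lower in the mutants by limma, with 0.1 as the limit on adjusted *P*, and none was called higher. This is 27.8% called lower, where 12.0% of the 13547 tested genes were called lower, 14.7% higher and 26.7% in either direction. The median log2 fold change (*Pax9*-null over wild-type) of the 18 genes was −0.21, from −0.87 to 0.26, with 13 below 0, and that of all tested genes was −0.00, with 50.2% below 0. At an unadjusted *P* under 0.05, 7 of the 18 differed (38.9%), all of them lower, where 35.1% of all tested genes did in either direction. In 7 genes (the 5 called, *Klhl22* and *Scarf2*) all *Pax9*-null libraries lay below all wild-type libraries, as in 20.1% of all tested genes, where 41.9% were apart in either direction. With 3 libraries per genotype the smallest *P* of a two-sided exact permutation test is 0.1, which it gave for each of these 7. The other tested genes of chromosome 16 numbered 393, with 39 called lower, 75 called higher and a median log2 fold change of 0.03.

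**Figure D2:**
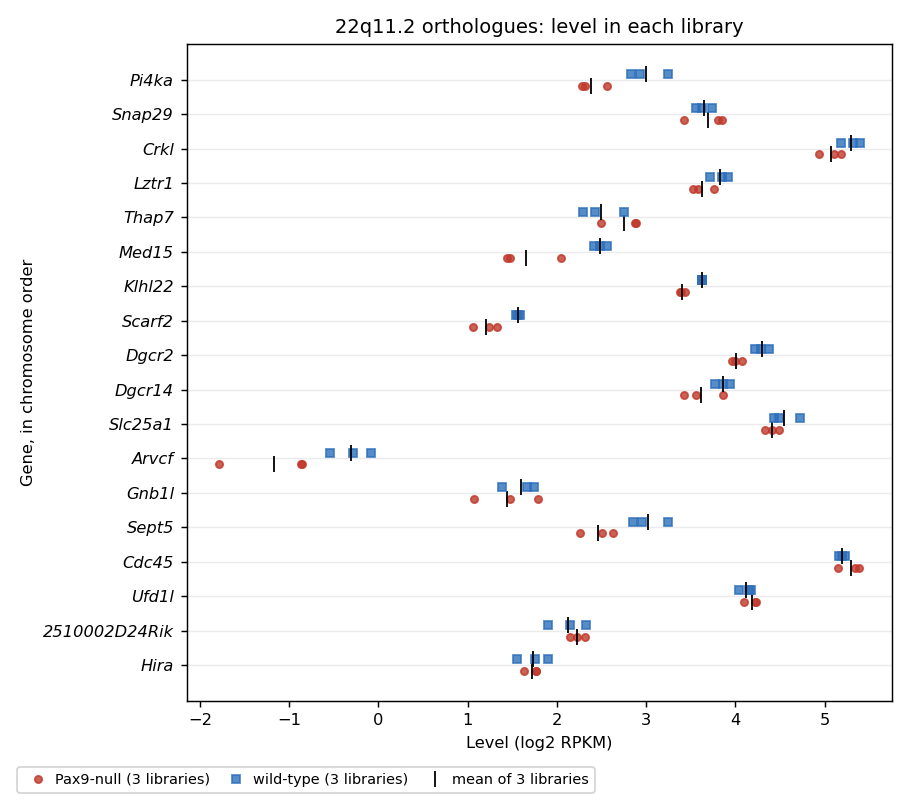
Level of each of the 18 genes (log2 RPKM) in the 3 *Pax9*-null (red circles) and 3 wild-type (blue squares) libraries, in chromosome order, with a black bar at each mean. The groups are apart in *Pi4ka*, *Med15*, *Klhl22*, *Scarf2*, *Dgcr2*, *Arvcf* and *Sept5*, each with *Pax9*-null below wild-type, and overlap in the other 11.

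The genes for signalling, adhesion and membranes were the group with the most calls, 4 lower of 8 in the table (11 listed), where 12.0% of all tested genes were called lower. Their median log2 fold change was −0.32. Once both trends, on gene length and GC content, were taken out of each library it was −0.14, and 0 of the 8 were called by limma. *Pi4ka* (ENSMUSG00000041720, 17280351 to 17406314, minus strand) encodes the phosphatidylinositol 4-kinase that supplies phosphatidylinositol 4-phosphate to the plasma membrane. Its log2 RPKM was 2.28, 2.56 and 2.31 in *Pax9*-null replicates 1 to 3 and 3.25, 2.83 and 2.93 in wild-type replicates 1 to 3, from 631 to 1362 reads. All *Pax9*-null libraries were below all wild-type libraries, with wild-type replicate 1 the highest. Means were 2.38 ± 0.15 and 3.01 ± 0.22 (SD, *n*=3), a log2 fold change of −0.63 (standard error 0.15, adjusted *P*=0.0433 by limma) that left 64.7% of the wild-type level. *Pi4ka*, a long gene (11257 bp), had a log2 fold change of −0.26 (adjusted *P*=0.144 by limma) once within-library trends on gene length and GC content were removed.

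*Sept5* (ENSMUSG00000072214, 18620502 to 18629954, minus strand) encodes a septin, a GTP-binding filament protein that is best known at synaptic vesicles. The *Pax9*-null libraries had log2 RPKM values of 2.50, 2.26 and 2.63 and the wild-type libraries 2.85, 2.95 and 3.25, from 117 to 254 reads. The groups did not overlap, with *Pax9*-null replicate 2 the lowest and wild-type replicate 3 the highest. *Sept5* fell to 68.2% of the wild-type level (log2 fold change −0.55, standard error 0.15, adjusted *P*=0.0545 by limma). Its gene model is uncertain, since 48.6% of its exonic bases in GENCODE M21 also belong to *Gp1bb* and 56.4% to the gene model *Gm49601*, both on the same strand. With the length and GC trends removed the log2 fold change was −0.41 (adjusted *P*=0.151 by limma). With GENCODE M21 lengths for all genes in that step (3915 bp in place of 2127 bp for *Sept5*) it was −0.19 (adjusted *P*=0.467).

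*Dgcr2* (ENSMUSG00000003166, 17839482 to 17898562, minus strand) encodes a membrane protein with a lectin-like domain. Log2 RPKM was 4.0, 4.07 and 3.96 in *Pax9*-null and 4.29, 4.22 and 4.38 in wild-type libraries, from 1209 to 1736 reads. This was the smallest of the 5 called changes and the one with the tightest libraries, at 4.01 ± 0.06 and 4.30 ± 0.08 (SD, *n*=3), without overlap. *Dgcr2* fell to 81.9% of wild-type (log2 fold change −0.29, standard error 0.08, adjusted *P*=0.0624 by limma). With the length and GC trends removed the log2 fold change was 0.04, on the other side of 0, with an adjusted *P* of 0.835. Of its exonic bases, 26.5% are shared with *Gm20518* on the same strand.

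*Arvcf* (ENSMUSG00000000325, 18348182 to 18407076, plus strand) encodes a catenin of the p120 family, which binds cadherins at adherens junctions. It was the lowest of the 18 genes, with log2 RPKM values of −1.79, −0.87 and −0.86 in *Pax9*-null and −0.29, −0.54 and −0.08 in wild-type libraries, resting on 21 to 76 reads. *Pax9*-null replicate 1 was far below the others, and the groups did not overlap. The log2 fold change of −0.87 had the largest standard error of the 18 (0.32), and its adjusted *P* of 0.0995 by limma lay just inside the threshold. It was −0.42 (adjusted *P*=0.403) with the length and GC trends removed and −0.32 with a pseudocount of 1 RPKM. *Arvcf* was not called with libraries centred on their medians, nor with any single library left out, and without *Pax9*-null replicate 1 its log2 fold change was −0.56.

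The other 4 genes of this group were not called. *Scarf2*, which encodes a membrane protein of the scavenger receptor family, had log2 RPKM values of 1.06, 1.24 and 1.33 in *Pax9*-null and 1.54, 1.59 and 1.56 in wild-type libraries. These did not overlap, but rested on 79 to 122 reads, and the log2 fold change of −0.35 had an adjusted *P* of 0.122 by limma. *Crkl*, the adaptor that couples receptor tyrosine kinases to small GTPases, was, with *Cdc45*, among the most abundant of the 18 genes per length, at 33.8 RPKM in *Pax9*-null and 39.4 RPKM in wild-type embryos. Its log2 RPKM was 5.10, 5.18 and 4.94 in *Pax9*-null and 5.40, 5.18 and 5.32 in wild-type libraries. *Pax9*-null replicate 2 and wild-type replicate 2 met at 5.18, and the log2 fold change of −0.22 (standard error 0.10) had an adjusted *P* of 0.146 by limma. *Gnb1l*, a WD-repeat protein gene, had a log2 fold change of −0.15 (adjusted *P*=0.633), and *Snap29*, a SNARE that fuses autophagosomes with lysosomes, 0.05 (adjusted *P*=0.825), both with overlapping groups. *Snap29* and *Pi4ka* overlap by 329 bp at their 5′ ends on opposite strands, where the models share 60 exonic bases.

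Among genes for gene regulation and RNA, 1 of 4 in the table (6 listed) was called. *Med15* (ENSMUSG00000012114, 17651208 to 17732891, minus strand) encodes a subunit of the tail of Mediator, the complex that joins DNA-bound transcription factors to RNA polymerase II. Its log2 RPKM was 1.47, 2.04 and 1.44 in *Pax9*-null and 2.56, 2.48 and 2.41 in wild-type libraries. The wild-type libraries lay close together (2.48 ± 0.07, SD, *n*=3), *Pax9*-null replicate 2 lay closer to them than the other *Pax9*-null libraries did (1.65 ± 0.34), and the groups did not overlap. *Med15* fell to 56.1% of wild-type, with a log2 fold change of −0.83 (standard error 0.18, adjusted *P*=0.0414 by limma), the smallest adjusted *P* of the 18. With the length and GC trends removed it was the only one of the 18 still called (−0.88, adjusted *P*=0.0642). The gene model of *Med15* is uncertain. A length of 3383 bp gives whole reads (107 to 252 per library), as would 3 times that length, with about 3 times the reads. The exons of GENCODE M21 cover 11642 bp, and the longest transcript of *Med15* is a retained-intron form with a GC content of 46.7%. With GENCODE M21 lengths for all genes in the trend removal, *Med15* had an adjusted *P* of 0.105 by limma (log2 fold change −0.61). With the GC content of the longest protein-coding transcripts (56.4% for *Med15*), the adjusted *P* was 0.121 (−0.56). Whether the model of *Med15* itself or the refitted trends removed the call was not tested.

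The remaining 3 genes of gene regulation overlapped between genotypes. *Dgcr14*, a spliceosome-associated factor, had log2 RPKM values of 3.42, 3.56 and 3.86 against 3.86, 3.77 and 3.94 (log2 fold change −0.25, adjusted *P*=0.201 by limma). *Hira*, the chaperone that deposits the histone variant H3.3, differed by −0.02 (standard error 0.14, adjusted *P*=0.938). *Thap7*, a zinc-finger repressor, had the highest log2 fold change of the 18, 0.26 (standard error 0.17, adjusted *P*=0.298). The *Hira* model shares 44.7% of its exonic bases with *Gm28539* on the same strand.

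None of the 4 genes of replication and protein turnover in the table (5 listed) was called, with a median log2 fold change of −0.07. *Klhl22*, a substrate adaptor of Cullin 3 ubiquitin ligases, stood at the threshold with an adjusted *P* of 0.1005 by limma. Log2 RPKM was 3.38, 3.43 and 3.39 in *Pax9*-null and 3.62 in each of the 3 wild-type libraries, a log2 fold change of −0.22 (standard error 0.08). The groups did not overlap, and the distance between them was larger than the range within either. *Lztr1*, also a Cullin 3 adaptor, had a log2 fold change of −0.21 (adjusted *P*=0.196), with *Pax9*-null replicate 3 (3.76) above wild-type replicate 1 (3.71). *Cdc45*, part of the replicative helicase and a gene of dividing cells, was at a like level (39.2 RPKM in *Pax9*-null and 36.6 RPKM in wild-type embryos). It differed by 0.10 (standard error 0.09, adjusted *P*=0.442), and its neighbour *Ufd1l*, a cofactor of the p97 segregase, by 0.06 (standard error 0.08, adjusted *P*=0.664). Their models share 209 exonic bases on opposite strands.

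Of the mitochondrial and metabolic genes, 2 of 6 listed were in the table and neither was called. *Slc25a1*, the mitochondrial citrate carrier, had log2 RPKM values of 4.33, 4.41 and 4.49 in *Pax9*-null and 4.43, 4.49 and 4.72 in wild-type libraries (log2 fold change −0.14, adjusted *P*=0.363 by limma). *2510002D24Rik* had 69 to 91 reads per library and a log2 fold change of 0.11 (adjusted *P*=0.601). The 4 tissue-restricted genes of the region, *Gp1bb*, *Serpind1*, *P2rx6* and *Slc7a4*, are all among those without a row.

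**Figure D3:**
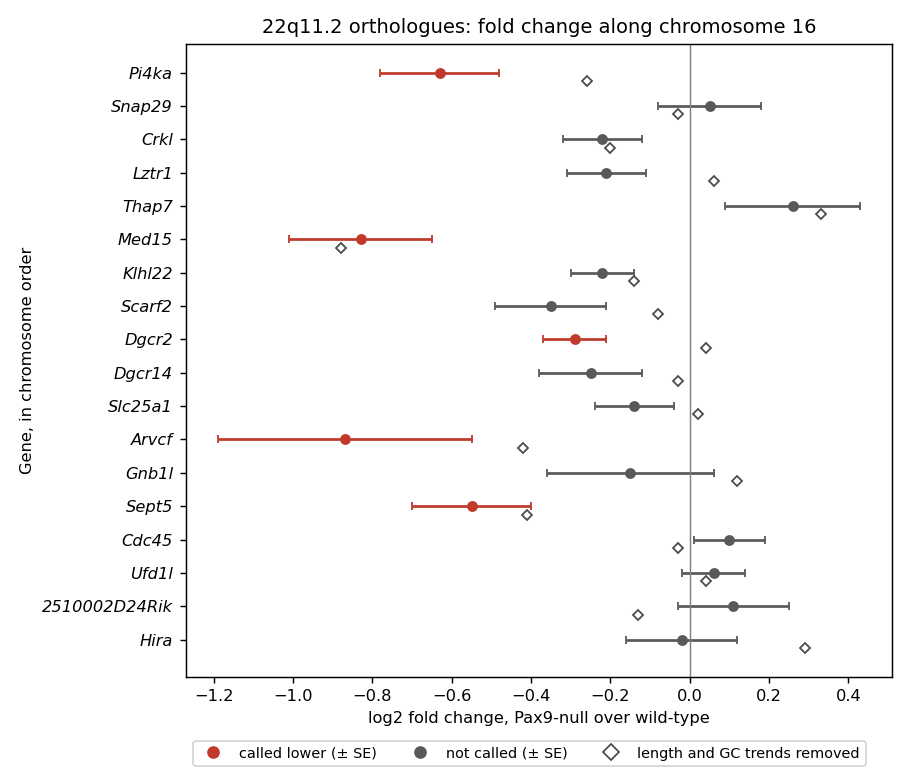
Log2 fold change (*Pax9*-null over wild-type) of the 18 genes in chromosome order, as filled circles with bars of 1 standard error (red where called lower) and as open diamonds after removal of the within-library trends on gene length and GC content. Called genes lie between −0.87 (*Arvcf*) and −0.29 (*Dgcr2*), and 11 of the 18 diamonds lie below 0 against 13 of the 18 circles.

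Along the chromosome, the 4 neighbouring genes from *Med15* to *Dgcr2* (17651208 to 17898562) had no other gene of the table between them. All 4 were lower without overlap between genotypes (20.1% of all tested genes were) and 2 of them were called (12.0%), with a median log2 fold change of −0.32. Once the length and GC trends were taken out, *Klhl22* (−0.14), *Scarf2* (−0.08) and *Dgcr2* (0.04) lay nearer to 0, and *Med15* at −0.88. At the other end, the 4 members from *Cdc45* to *Hira* (18780447 to 18970309) had a median of 0.08, and all 4 overlapped between genotypes. The 5 genes from *Pi4ka* to *Thap7* had a median of −0.21, with *Pi4ka* alone apart. These runs were picked after the values were seen and were not tested.

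The 5 called genes had a median length of 6429 bp (2127 to 11257 bp) and the 13 others one of 3429 bp (1486 to 6133 bp), against 3849 bp over all tested genes. Removal of the length and GC trends took the median log2 fold change of the 18 genes from −0.21 to −0.03, with 1 called lower, *Med15*, where 3.05% of 13524 tested genes were called lower, 2.29% higher and 5.35% in either direction.

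The calls varied with single libraries. None of the 18 was called without *Pax9*-null replicate 1 or without *Pax9*-null replicate 3, fits in which 0.295% and 0.162% of all tested genes were called lower. There *Med15* had adjusted *P* values of 0.165 and 0.128 and *Pi4ka* of 0.17 and 0.128 by limma. Their log2 fold changes in these fits were −0.74 and −0.73 for *Med15* and −0.58 and −0.59 for *Pi4ka*, near the −0.83 and −0.63 of all libraries, and *Dgcr2* (−0.28 and −0.26) and *Sept5* (−0.57 and −0.64) also stayed near theirs. *Med15* and *Pi4ka* were called in each of the other 4 fits that left out a library. *Sept5* was called without wild-type replicate 1 (adjusted *P*=0.0646) or 2 (0.0725), and *Dgcr2* without replicate 2 of either genotype (0.0834 for *Pax9*-null and 0.0716 for wild-type). Without wild-type replicate 3, the library low in cardiomyocyte markers, *Med15* (0.0654) and *Pi4ka* (0.0721) were called, and *Sept5* (0.117), *Dgcr2* (0.157) and *Arvcf* (0.191) were not, in a fit that called 6.64% of all tested genes lower. The log2 fold changes of these last 3 were then −0.44, −0.25 and −0.76. With replicate number as a block, *Med15*, *Pi4ka* and *Sept5* were called.

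**Figure D4:**
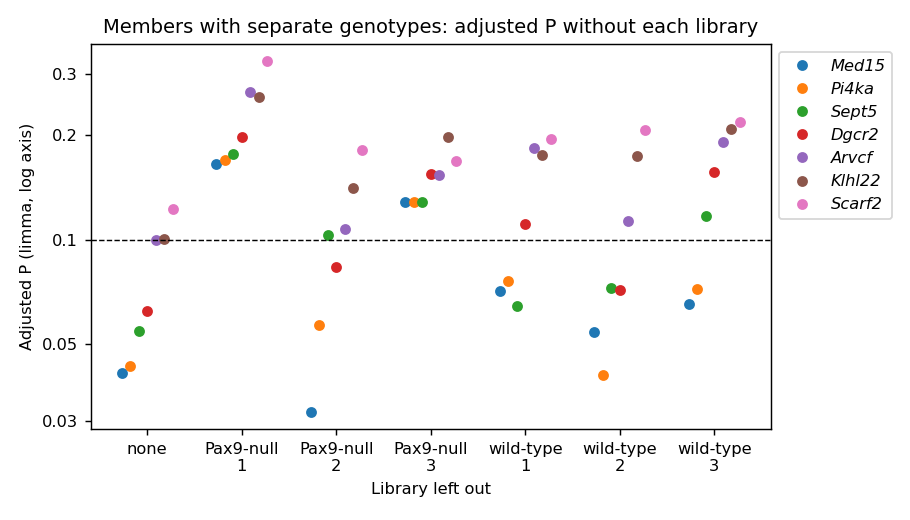
Adjusted *P* by limma (log axis) of the 7 genes without overlap between genotypes, with all libraries and without each of them, and a dashed line at the threshold of 0.1. All 7 lie above the line without *Pax9*-null replicate 1 or 3, and *Med15* and *Pi4ka* lie below it in every other column.

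The complexes and pathways in which the products of the region act, including those of genes without a row, were followed with 122 other genes in 11 lists chosen by function. Of 116 tested, 25 were called lower and 17 higher, against the 12.0% and 14.7% of all tested genes. With the length and GC trends removed 2 were called lower and 0 higher. These were *Rbx1* (−0.29) and *Med4* (−0.44), named here for that result, which lay above 0 before (0.25 and 0.10) and were not called. Without *Pax9*-null replicate 1 or without *Pax9*-null replicate 3, 0 were called in either direction, where 301 and 175 of all tested genes were. Without wild-type replicate 1 the counts were 9 lower and 8 higher, and without wild-type replicate 3 they were 13 and 9, where all tested genes had 697 and 1102, and 900 and 1241. List medians also moved when the trends on gene length and GC content were taken out of all 6 libraries. They were then −0.15 for the p120 catenins and cadherins, −0.07 for Crk signalling and −0.17 for microRNA biogenesis. Thioredoxin, citrate and proline genes had a median of −0.16, Mediator −0.09 (14 of 24 below 0) and the PI4KA complex 0.21. The other 5 lists lay between −0.08 and −0.00. Of the 41 called genes with a value once these trends were removed, 40 lay nearer to 0 than before, all but *Efr3a*. Fold changes below are log2 values with all 6 libraries and no trend removed, and adjusted *P* values are by limma.

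The p120 catenin family and cadherins, the partners of *Arvcf*, were all 8 below 0 with a median of −0.37. Of these, 3 were called lower (37.5%, against 12.0% of all tested genes). These were *Ctnnd2*, a neural p120 relative (−0.66, adjusted *P*=0.0459), *Cdh2*, N-cadherin (−0.38, adjusted *P*=0.0605), and *Ctnna1*, the catenin that links cadherins to actin (−0.45, adjusted *P*=0.0649). *Ctnnd1*, p120 catenin itself, differed by −0.16 (adjusted *P*=0.547). Among Crk adaptor signalling genes, 3 of 12 were called lower and 1 higher, with a median of −0.27. *Rapgef1*, the exchange factor for Rap1 that binds CRKL (−0.65, adjusted *P*=0.0428), *Dock1*, an exchange factor for Rac (−0.50, adjusted *P*=0.0628), and *Ptpn11*, the phosphatase SHP2 (−0.30, adjusted *P*=0.072), fell. *Crk*, the paralogue of *Crkl*, rose (0.28, adjusted *P*=0.0806).

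MicroRNA biogenesis genes, the setting of *Dgcr8*, had a median of −0.33, with 3 of 8 called lower (37.5%, against 12.0% of all tested genes) and 0 higher. The Argonaute genes *Ago1* (−0.57, adjusted *P*=0.0459) and *Ago2* (−0.54, adjusted *P*=0.0786) and the endonuclease *Dicer1* (−0.44, adjusted *P*=0.0975) fell, and *Drosha*, the nuclease that DGCR8 binds, differed by −0.34 (adjusted *P*=0.151). Of the HIRA chaperone and H3.3 genes, 2 of 6 were called lower (33.3%) and 1 higher. The HIRA complex subunits *Cabin1* (−0.68, adjusted *P*=0.042) and *Ubn1* (−0.35, adjusted *P*=0.0613) fell, and the histone chaperone *Asf1a* rose (0.55, adjusted *P*=0.042). Once both trends were taken out these were −0.21, −0.09 and 0.06. The H3.3 genes *H3f3a* and *H3f3b* differed by 0.12 and 0.23 and were not called.

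Of the Mediator subunits, with which MED15 works, 3 of 24 were called lower (12.5%, against 12.0% of all tested genes) and 6 higher. In either direction this was 37.5%, against 26.7% of all tested genes. Their median was 0.10 and lay below 0 (−0.09) once both trends were taken out. *Med24* (−0.60, adjusted *P*=0.0321), a tail subunit like MED15, fell. *Med30* in the head (0.66, adjusted *P*=0.0431) and *Med7* (0.45, adjusted *P*=0.0464) and *Med21* (0.56, adjusted *P*=0.0493) in the middle rose. The other called subunits, named after their values were seen, were *Med16* (−0.52) and *Med25* (−0.35) of the tail and *Med6* (0.39), *Med28* (0.43) and *Med31* (0.48) of the head and middle. The called tail genes of this list were 4663 to 7629 bp long (3383 bp for *Med15* itself, whose model is uncertain) and the 6 called higher 871 to 5011 bp. Once both trends were removed, *Med30* (−0.12), *Med6* (−0.17) and *Med25* (0.14) lay on the other side of 0 and none of these 9 was called.

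Septins and the SNAREs that work with SNAP29 had 2 of 13 called lower (15.38%, against 12.0% of all tested genes) and 5 higher. In either direction this was 53.85%, against 26.7% of all tested genes, with a median of 0.00. *Sept9* (−0.44, adjusted *P*=0.0415) fell, and *Sept7* (0.41, adjusted *P*=0.0407), a core subunit of septin filaments, *Sept10* (0.35, adjusted *P*=0.0475) and the lysosomal SNARE *Vamp7* (0.57, adjusted *P*=0.0476) rose. The list of thioredoxin, citrate and proline genes, which stands for *Txnrd2*, *Slc25a1* and *Prodh*, had 5 of 11 called lower (45.45%) and 2 higher (median −0.26). *Acly*, which splits exported citrate in the cytosol (−0.49, adjusted *P*=0.0463), and the proline enzymes *Aldh18a1* (−0.32, adjusted *P*=0.0566), *Pycr1* (−0.52, adjusted *P*=0.063) and *Aldh4a1* (−0.50, adjusted *P*=0.0739) fell.

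The other 4 lists had 1 gene called in a direction at most. Their shares called lower ran from 9.09% to 16.67%, against 12.0% of all tested genes. The replicative helicase of *Cdc45* had 1 of 11 called, *Mcm3* (−0.25, adjusted *P*=0.0735), with a median of −0.02. The Ran cycle, the setting of *Ranbp1*, had 1 of 8, *Rangap1* (−0.32, adjusted *P*=0.0763), with a median of 0.02. For the p97 and Cullin 3 genes (median 0.04) *Vcp*, the p97 segregase itself, fell (−0.29, adjusted *P*=0.0774). For the membrane complex of PI4KA (median 0.03) *Efr3a* rose (0.28, adjusted *P*=0.0789) and *Efr3b* fell (−0.55, adjusted *P*=0.0893).

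**Figure D5:**
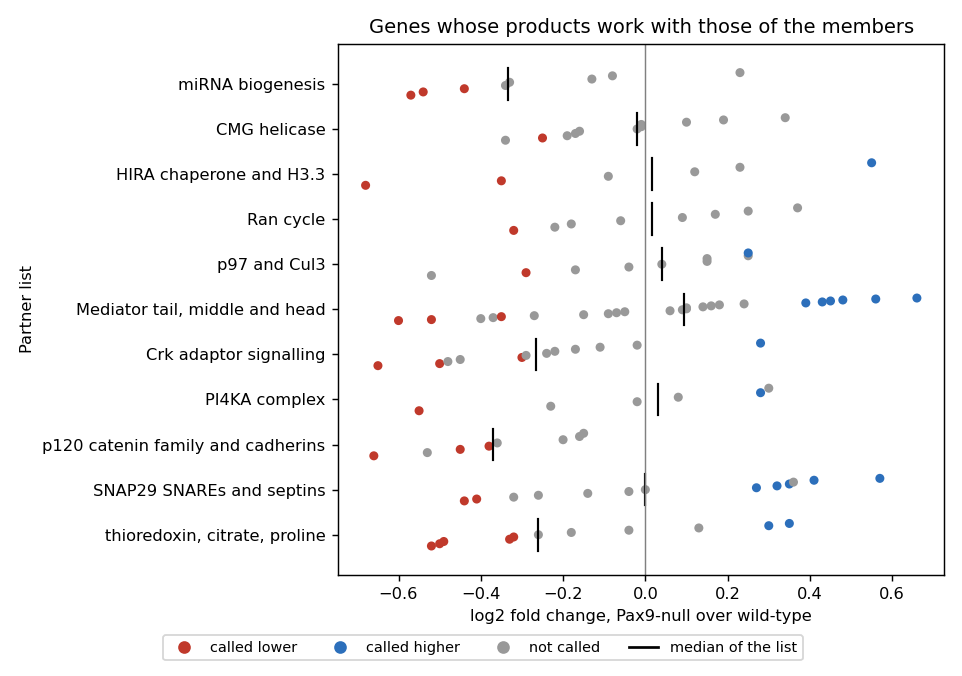
Log2 fold change (*Pax9*-null over wild-type) of the 116 tested partner genes by list, a point per gene, red where called lower, blue where called higher and grey where not called, with a black bar at the median of each list. List medians run from −0.37 (p120 catenin family and cadherins) to 0.10 (Mediator), of which the latter was −0.09 without the length and GC trends.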

How the data were processed

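The deposited table holds 1 value per gene and library for 3 *Pax9*-null and 3 wild-type E9.5 embryos. According to the study's methods, the authors trimmed reads (Trimmomatic 0.32), kept unique and non-redundant ones, sub-sampled the libraries, aligned to GRCm38 (STAR, for which the sources give different versions), and counted on Ensembl genes with featureCounts 1.5.1 at default, unstranded settings. The versions are those of the submitters' processing notes. The labels' extraction text describes another protocol (sorted TECs), and the paper's whole tissue was followed. The values deposited by the authors are log2 RPKM. With a prior count of 0.5 and the library sizes given, 82.7% of values came out as whole reads (within 0.05 reads) at the GENCODE M21 gene length and 99.8% of genes did after a search of gene lengths, giving 11697782 to 12731623 reads per library. The prior count and library sizes were inferred from the values.

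Values were tested as deposited with limma 3.58.1 in R 4.3.3, two-sided and with no covariates, on the 13547 genes that averaged 0.5 RPKM or more. *P* values were adjusted by Benjamini-Hochberg over all of these genes, and genes at 0.1 or less were called. The script was tested on simulated data. Trends with log2 length and GC content were removed in each library by natural splines of 5 degrees of freedom, over 13524 genes. In all 20 alternatives were tried. Every member in the table is named, with up to 4 called genes of each partner list (those of smallest adjusted *P*), and of marker lists the most abundant gene and up to 2 called genes. The cardiomyocyte genes are all named, after their values were seen. A few listed genes are not reported here. Members and lists were chosen with earlier results of these data known. Promoters are from RefSeq (GRCm38.p6), and gene positions and exon overlaps from GENCODE M21.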

Additional observations from a re-analysis of the deposited data

How the results depend on the processing

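The count of 5 genes of the region called lower stayed at 5 with a pseudocount of 0.1 or 1 RPKM, with no filter (each the same 5 genes) and with quantile normalization (*Crkl* in place of *Arvcf*). It was 4 with libraries centred on their medians, where 10.36% of all tested genes were called lower. At a mean RPKM of at least 5 it was 4 of 12 tested (13.67% of all). Without the variance trend it was 6 (10.1% of all). With library weights, which added *Scarf2*, *Klhl22* and *Lztr1*, it was 8 (14.99% of all). It was 2 at an adjusted *P* of at most 0.05, 3 with the replicate block, 1 with the length and GC trends removed, 1 with the block and the trends removed, and 0 with GENCODE M21 lengths or with the GC content of protein-coding transcripts in the trend removal, both chosen after seeing the data. With a library left out it ran from 0 to 4, and no gene of the region was called higher under any alternative. The partner count of 25 lower and 17 higher was 15 and 11 without the variance trend, 7 and 7 at an adjusted *P* of at most 0.05, 7 and 5 with the block, 2 and 0 with the trends removed (0 and 0 with GENCODE M21 lengths, 1 and 0 with protein-coding GC content), 0 and 0 with the block and trends removed, and 35 and 11 with quantile normalization. With a library left out it ran from 0 to 24 lower and from 0 to 16 higher. Over all genes, 1621 were lower and 1990 higher (55.1% of calls higher). With the trends removed 413 were lower and 310 higher (42.9% higher), with GENCODE M21 lengths 260 and 243, with protein-coding GC content 428 and 348, with the block 495 and 882, with the block and trends removed 120 and 142, at 0.05, 502 and 833, and with quantile normalization 1742 and 1433 (45.1% higher). With a library left out they ran from 22 to 1572 lower and from 153 to 2006 higher.

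Replicate numbers did not pair the libraries (correlations of same-numbered deviations −0.02, −0.17 and 0.26), so the replicate block is only an alternative. With the trends removed, with or without the block, the log2 fold change changed sign for *Snap29* (−0.034), *Lztr1* (0.065), *Dgcr2* (0.036), *Slc25a1* (0.015), *Gnb1l* (0.121), *Cdc45* (−0.032), *2510002D24Rik* (−0.131), *Hira* (0.286) and, among the partner genes named in the report by rule, *Med30* (−0.124). Over all partner genes 31 of 115 changed sign in that step, among them *Med6*, *Med25*, *Rbx1*, *Med4* and *H3f3a*. With GENCODE M21 lengths it did so for *Snap29* (−0.057), *Lztr1* (0.094), *Dgcr2* (0.037), *Dgcr14* (0.044), *Gnb1l* (0.127), *2510002D24Rik* (−0.171), *Hira* (0.281) and *Med30* (−0.049). With protein-coding GC content it did so for *Snap29* (−0.046), *Lztr1* (0.074), *Klhl22* (0.032), *Dgcr2* (0.084), *Slc25a1* (0.006), *Gnb1l* (0.103), *Cdc45* (−0.040), *2510002D24Rik* (−0.139), *Hira* (0.264) and *Med30* (−0.123). *Hira* was at 0.017 with median centring and 0.004 with quantile normalization. With a library left out, *Hira* ran from −0.11 to 0.065, *Snap29* from −0.033 to 0.185 and *Gnb1l* from −0.326 to 0.033. The causes of these changes were not tested. The other values for the 18 genes kept their direction. Depth limits *Arvcf* most, at 21 to 76 reads per library.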
